A study of Danio rerio with 10 samples.

Results

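The histone H3 marks H3K27Ac, H3K4me3 and H3K27me3 were set side by side in injured eye muscle of adult zebrafish at 9 hours post-injury (hpi). The members are all intervals that the authors called for these marks at that time, 66541 of the 196467 intervals in the 9 interval lists of the series. They comprise 34393 intervals of H3K27Ac, 17117 of H3K4me3 and 15031 of H3K27me3. The lists name 23871 genes, and 17055 of them had the summit of at least 1 mark within 1000 bp of their start. No value of control muscle or of 18 hpi is used below.

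The series measured the marks by chromatin immunoprecipitation and sequencing (ChIP-seq) in the lateral rectus, a muscle that turns the eye outward, before injury and at 9 and 18 hpi. A segment of the muscle of both eyes was cut out to injure it, and tissue of 192 fish was pooled for 9 hpi. The fish were sexually mature adults of 4 to 18 months; the design text gives them as wild-type, while the growth protocol names wild-type fish and fish carrying an α-actin::EGFP transgene, in which an actin promoter drives a green fluorescent protein. Each mark had 1 library at 9 hpi, made from pooled tissue and with no replicate, so no difference below has a test and no spread between fish can be given.

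H3K4me3 is laid down at promoters by enzymes of the Trithorax group. H3K27Ac is laid down by acetyltransferases at active promoters and enhancers. H3K27me3 is laid down by Polycomb repressive complex 2 on genes held silent, and since it occupies the same lysine as H3K27Ac, 1 histone tail cannot carry both. A promoter with H3K4me3 and H3K27me3 together is commonly called bivalent, a state known from developmental genes in stem cells. In pooled tissue of several cell types, marks that overlap may lie on the same chromosomes or in different cells, and these cannot be told apart here. Fewer cells with a mark and less of the mark per cell cannot be told apart either.

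All values of signal are the authors' average over an interval unless called a maximum. Signals are compared within a mark only. H3K27me3 intervals were the longest: their median length was 5000 bp, with a median average signal of 9.73. Intervals of H3K27Ac had a median length of 1800 bp and a median signal of 18.8, and those of H3K4me3 3000 bp and 28.8.

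H3K4me3 mostly lay where H3K27Ac lay. Of the H3K4me3 intervals, 14970 (87.5%, exact binomial 95% interval 87.0 to 88.0%) overlapped an H3K27Ac interval by at least 1 bp. The reverse share was lower: 15877 of the H3K27Ac intervals (46.2%, 45.6 to 46.7%) overlapped H3K4me3. These intervals cover counting error only. The H3K27Ac intervals that overlapped H3K4me3 had a median signal of 33.4, against 14.3 in those that did not. They also held a CpG island of the authors' annotation more often, in 22.2% against 1.28%. H3K27Ac was thus stronger, and richer in CpG islands, where it met H3K4me3.

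H3K27me3 had the largest share of intervals found by themselves. Of its intervals, 8177 (54.4%) overlapped neither other mark, 4324 (28.8%) overlapped both, 1372 (9.13%) overlapped H3K27Ac only and 1158 (7.70%) overlapped H3K4me3 only. By number more H3K27Ac intervals, 16681 (48.5%), overlapped neither other mark. H3K27me3 intervals that met H3K4me3 held a CpG island in 35.6%, against 8.07% of those that did not. Of the H3K4me3 intervals, 5859 (34.2%) met H3K27me3, and these were weaker, with a median H3K4me3 signal of 23.9 against 32.0. Of the H3K27Ac intervals, 6600 (19.2%) met H3K27me3, with a median H3K27Ac signal of 20.6 against 18.3. Divided by the remaining mark, the direction turned for H3K27Ac, and for H3K4me3 it held only beside H3K27Ac. Among H3K27Ac intervals with H3K4me3 the median was 24.9 with H3K27me3 and 38.3 without it, and among those without H3K4me3 it was 13.8 and 14.4. Among H3K4me3 intervals with H3K27Ac the median was 27.5 with H3K27me3 and 34.4 without it, and among those without H3K27Ac it was 13.7 and 11.7. The plot of interval overlaps shows the 3 lists divided this way.

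**Figure D1:**
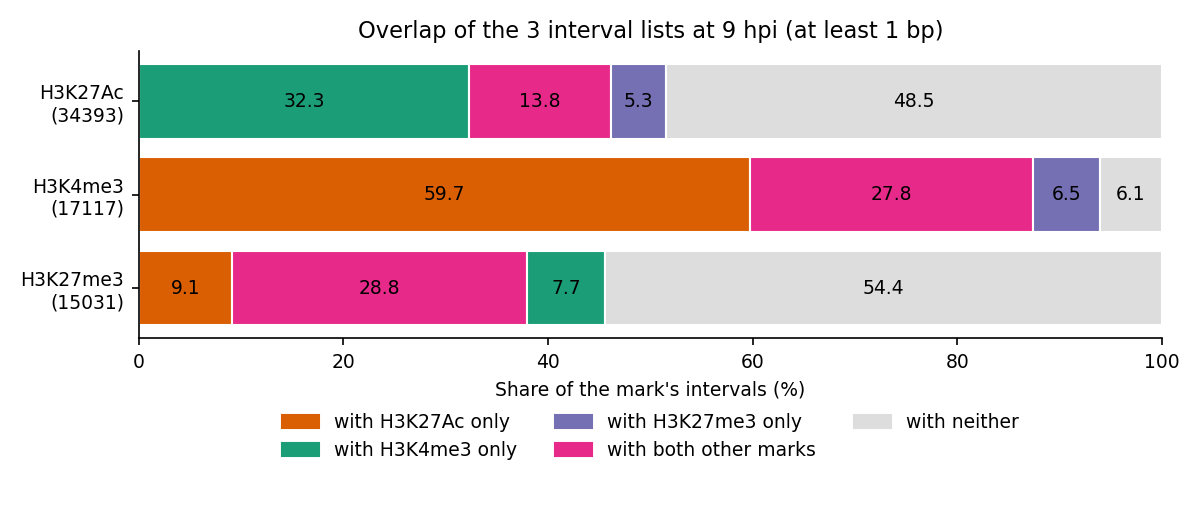
Share of the intervals of each mark (x axis, %) that overlapped 1, both or neither of the other marks by at least 1 bp at 9 hpi, with the number of intervals under each name. H3K4me3 has the smallest part without another mark (6.07%) and H3K27me3 the largest (54.4%).

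Counted in base pairs the marks overlapped less. Together they covered 185.5 Mb. H3K27me3 alone took 76.7 Mb (41.3%) and H3K27Ac alone 47.7 Mb (25.7%). H3K27Ac and H3K4me3 without H3K27me3 shared 23.5 Mb (12.7%). All 3 marks shared 7.76 Mb (4.18%), and H3K4me3 and H3K27me3 without H3K27Ac shared 5.01 Mb (2.7%).

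Proximity to genes divided the marks in the same order. Of the H3K4me3 summits 77.0% lay within 1000 bp of a gene start, of the H3K27Ac summits 36.8% and of the H3K27me3 summits 30.5%. Of the H3K27Ac intervals near a start 95.7% overlapped H3K4me3, and of those farther away 17.3% did. Those farther away had a median H3K27Ac signal of 15.0 against 36.5 near a start. H3K4me3 far from a named start still overlapped H3K27Ac in 77.8% of its intervals.

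Gene starts were then classed by the marks whose summit lay within 1000 bp. H3K27Ac with H3K4me3 was the main class, with 10320 genes (43.2% of the 23871 named). All 3 marks stood at 2072 genes (8.68%), and H3K4me3 with H3K27me3 and no H3K27Ac at 775 (3.25%). Of the single marks, H3K27me3 stood alone at 1738 genes (7.28%), H3K27Ac at 1059 (4.44%) and H3K4me3 at 951 (3.98%). H3K27Ac with H3K27me3 and no H3K4me3 was the rarest class, with 140 genes (0.586%).

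The authors' distance runs from the summit of an interval, so a long interval can lie over a start while its summit is far off. Gene starts were therefore also placed from the deposited distances, and an interval counted where it covered the start. This was possible for 23138 genes. Of the starts that H3K27me3 covered, 38.2% had no H3K27me3 summit within 1000 bp, against 6.80% for H3K27Ac and 8.42% for H3K4me3. Under this rule 2825 genes (12.2%) had H3K27me3 alone, 3095 (13.4%) all 3 marks, 1024 (4.43%) H3K4me3 with H3K27me3 and 230 (0.994%) H3K27Ac with H3K27me3. H3K27Ac with H3K4me3 stayed the main class with 9609 genes (41.5%), while H3K4me3 alone had 850 (3.67%), H3K27Ac alone 591 (2.55%) and no mark 4914 (21.2%). The plot of genes by combination gives both rules.

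**Figure D2:**
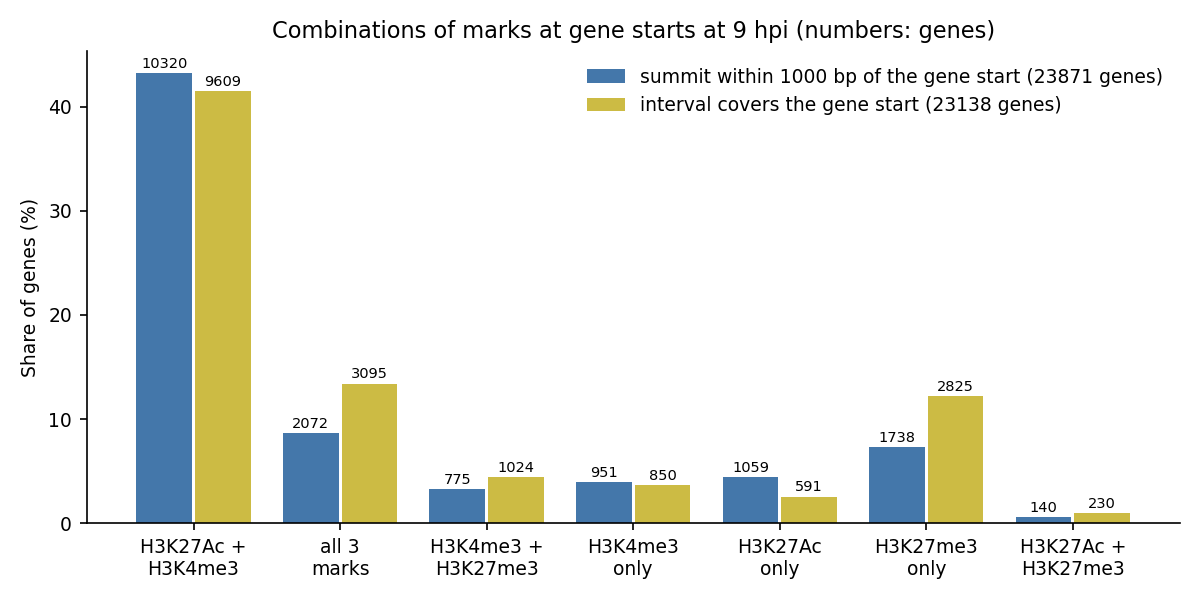
Share of genes (y axis, %) in each combination of marks at the start at 9 hpi, by summits within 1000 bp (23871 genes) and by intervals that cover the start (23138 genes), with gene numbers above the bars. H3K27me3 alone and all 3 marks are larger under the covering rule, and H3K27Ac alone is smaller.

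The class with H3K27Ac alone shrank most. Of its 1030 genes that could be placed, 52.3% had a start covered by an H3K4me3 interval whose summit lay farther off. The strongest members of the class were of this kind. fam60a, which encodes a subunit of the Sin3 histone deacetylase complex, had an H3K27Ac signal of 145.0. trappc10, which encodes a vesicle tethering factor, had 139.1, and litaf, a membrane protein gene induced by lipopolysaccharide in mammals, had 133.6. All of these starts were covered by H3K4me3 too.

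Signals just inside and just outside the limit of 1000 bp were close for H3K4me3 and H3K27me3 and higher outside for H3K27Ac. Genes with an H3K27Ac summit at 901 to 1000 bp had a median signal of 30.0 (181 genes), and those at 1001 to 1100 bp had 36.3 (165 genes). For H3K4me3 the medians were 32.5 inside (205 genes) and 32.8 outside (157 genes), and for H3K27me3 11.6 (225 genes) and 11.2 (206 genes). The genes nearest to the edge were cicb at 999 bp and atl3 at 1002 bp for H3K27Ac. For H3K4me3 they were LOC565641 at 1000 bp and LOC101885873 at 1001 bp. For H3K27me3 they were LOC100329796 at 1000 bp and foxf1, a forkhead factor gene, at 1001 bp with a signal of 17.3.

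Within a mark, signal differed between the classes. Over distinct start intervals, the median H3K27Ac signal was 42.2 (quartiles 27.3 and 60.9) with H3K4me3 and 22.8 (16.6 and 32.7) with both other marks. It was 22.3 (14.2 and 40.5) alone and 16.4 (11.8 and 23.1) with H3K27me3 only. The medians with both other marks and alone were close by summits only: over covered starts they were 24.8 with all 3 marks and 15.3 with H3K27Ac alone.

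H3K4me3 was also highest beside the other active mark. Its median was 36.9 (25.9 and 50.2) with H3K27Ac, 24.9 (17.2 and 36.4) with both other marks, 14.6 (11.1 and 20.8) with H3K27me3 and 15.0 (10.5 and 26.7) alone. The H3K4me3 intervals also became shorter, from a median of 3400 bp with H3K27Ac to 2600 bp with both marks and 1600 bp with H3K27me3. CpG islands went the other way: 22.1% of the H3K4me3 intervals with H3K27Ac held one, 36.7% of those with both marks and 43.5% of those with H3K27me3, against 19.5% of H3K4me3 alone. The island share was therefore highest where H3K4me3 was weak and narrow and lay beside H3K27me3.

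H3K27me3 itself varied little between the classes. Its median was 11.7 (9.51 and 14.8) with both marks, 13.2 (10.5 and 17.4) with H3K4me3, 11.4 (8.81 and 15.5) alone and 11.8 (9.08 and 15.3) with H3K27Ac. The quartiles of all 4 classes overlapped widely, as the plot of signal by combination shows.

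**Figure D3:**
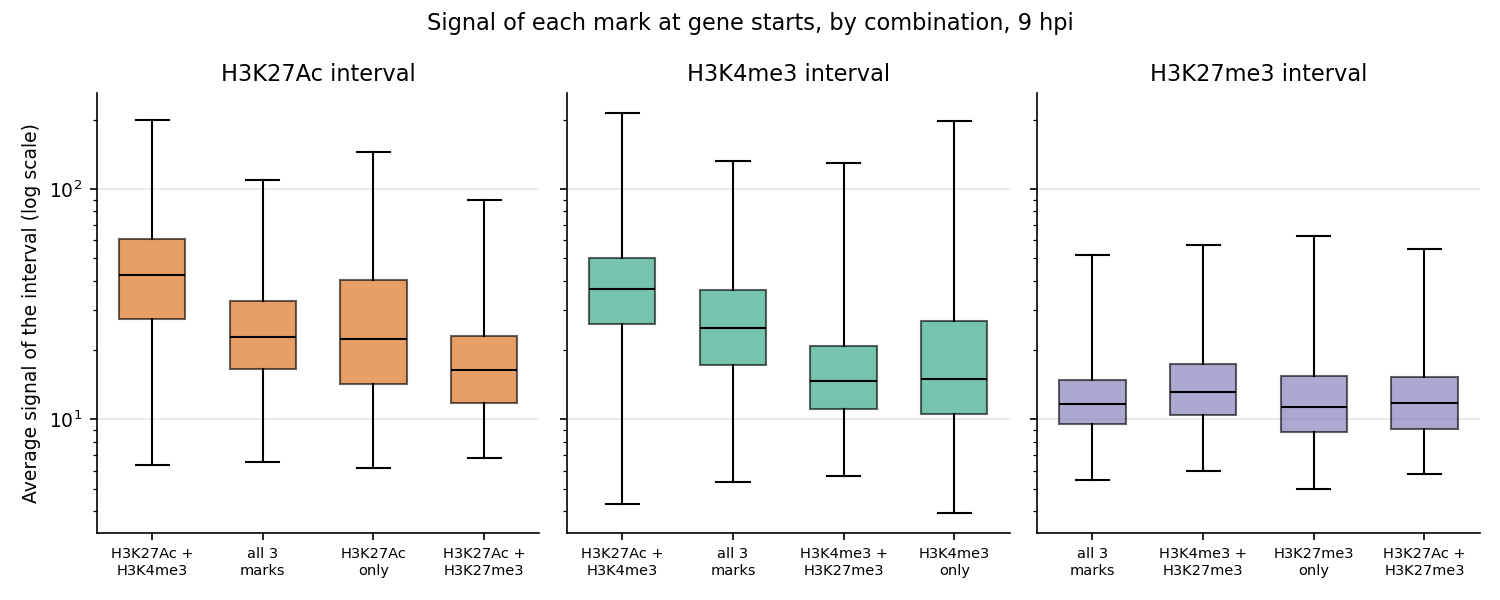
Average signal of the start interval (y axis, log scale) of each mark by combination at 9 hpi; boxes run from the lower to the upper quartile with the median as a line, and whiskers to the lowest and highest interval. H3K27Ac and H3K4me3 are highest where they occur together without H3K27me3, and H3K27me3 differs little between classes.

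The intervals of a class were laid out as follows. At the 10320 starts with H3K27Ac and H3K4me3 the summits of both marks lay a median of 32 bp apart, and 73.9% of the H3K27Ac intervals lay inside the H3K4me3 interval. At the 775 starts with H3K4me3 and H3K27me3, 88.3% of the H3K4me3 intervals lay inside the H3K27me3 interval, with summits a median of 144 bp apart. At the starts with all 3 marks the H3K27Ac and H3K27me3 summits lay 176 bp apart. Most summits lay inside the gene: 84.8% of those of H3K27Ac and 89.3% of those of H3K4me3 in the main class were downstream of the start.

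Across genes, the signals of H3K27Ac and H3K4me3 rose together in the main class (Spearman's rho 0.59 over 10320 genes). In the class with all 3 marks, rho was −0.041 between H3K27Ac and H3K27me3 and 0.12 between H3K4me3 and H3K27me3, over 2072 genes. The points come from 1 library per mark, and neighbouring genes can share an interval, so these values only describe the libraries.

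The highest averages in the main class belonged to intervals no longer than the class median. They were at most 1600 bp for H3K27Ac (median 1600 bp) and 2400 bp for H3K4me3 (median 3400 bp). hace1, a ubiquitin ligase gene (chromosome 16, 2879601 to 2880200, danRer10), had the highest H3K27Ac average, 199.3, with an H3K4me3 average of 77.0. tcp1, which encodes a subunit of the chaperonin that folds actin and tubulin (chromosome 23, 2481801 to 2482800), was in the first 5 of both marks, with 191.6 for H3K27Ac and 160.2 for H3K4me3. brf1a, a factor gene of RNA polymerase III, had 170.2 for H3K27Ac, napga, of vesicle fusion, 168.0, and usp10, a deubiquitinase gene, 164.4. For H3K4me3 the first were wu:fc66f06 with 213.1, the chromatin remodelling gene baz1b with 166.5, the lipid phosphatase gene inppl1a with 163.9 and the sorting nexin gene snx25 with 161.4. At hace1 and wu:fc66f06 the H3K27Ac interval did not reach the start, and the start of brf1a could not be placed.

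The order was also taken by the maximum over the interval. Of the 60 places in the 12 rankings by average, 15 were also among the first 5 by maximum, and for the main class none was. By maximum, brdt, which encodes a bromodomain protein, led H3K27Ac with 393, and purbb led H3K4me3 with 399. The names of the strongest genes therefore rest on the measure, and not in the main class only. No ranking shared more than 3 of its 5 places. None was shared for H3K4me3 at starts with all 3 marks or for H3K27Ac at starts with H3K27Ac alone. For H3K27Ac at starts with all 3 marks 1 place was shared.

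At starts with all 3 marks, the ranking depended on the mark. By H3K27Ac the first was slc1a5, an amino acid transporter gene on chromosome 15, with averages of 110.0 for H3K27Ac, 62.1 for H3K4me3 and 15.0 for H3K27me3. After it came cdc42bpb, a kinase gene of the cytoskeleton, with an H3K27Ac average of 104.4, ppp2r5c, a phosphatase subunit gene, with 101.2, the phosphatase gene inpp1 with 100.3 and the connexin gene cx43.4 with 97.8. The H3K27me3 intervals of ppp2r5c and inpp1 did not reach the start.

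By H3K4me3 the first were fam78ab with 132.7, wtip with 130.0, LOC100334776 with 125.9, cebpd with 114.6 and fzd1 with 109.1. cebpd encodes a transcription factor of the C/EBP family that answers inflammatory signals, and fzd1 a Wnt receptor. At cebpd (chromosome 24) the H3K27Ac average was 62.6 and the H3K27me3 average 19.8, so all marks were above their class medians.

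By H3K27me3 the leading genes were of another kind. six3a, sox2, foxg1b and eng1b encode transcription factors that pattern the embryonic brain and eye, with H3K27me3 averages of 51.7, 48.6, 46.3 and 44.8. At sox2 (chromosome 22, 37404001 to 37419200) the H3K27Ac average was 21.5 and the H3K4me3 average 25.4. At ca2, a carbonic anhydrase gene, all 3 intervals were short, and the averages were 55.5, 36.8 and 45.6 for H3K27Ac, H3K4me3 and H3K27me3. By maximum, 3 of these 5 places were also among the first 5.

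At the starts with H3K4me3 and H3K27me3, the strongest H3K4me3 belonged to a pair of immediate early genes, which cells switch on quickly after a stimulus. junba, which encodes a subunit of the AP-1 factor (chromosome 1), had an H3K4me3 average of 130.5 and an H3K27me3 average of 14.9. An H3K27Ac interval with an average of 87.8 covered its start, with the summit farther than 1000 bp. The same held for ier5l, an immediate early gene, with 114.2 for H3K4me3, 12.2 for H3K27me3 and 80.4 for the covering H3K27Ac. The next were si:ch1073-459b3.2, esyt1a and adcy5, with H3K4me3 averages of 66.2, 64.8 and 59.8. By covering intervals adcy5 had all 3 marks and esyt1a had H3K27Ac and H3K4me3 without H3K27me3.

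By H3K27me3 the same class was led by LOC100149117 with 57.4, followed by hoxd10a, mnx1 and eng2a with 54.9, 52.9 and 48.8, which are homeobox genes. btf3, which encodes a general transcription factor, had 48.8. At mnx1 the H3K4me3 interval was 400 bp long with an average of 13.9 and did not reach the start, and at hoxd10a H3K27me3 alone covered the start.

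By average, H3K27me3 alone was led by homeobox genes: hoxa11b with 62.7, otx1b with 62.6, tlx1 with 60.8, hoxc11a with 56.0 and pitx1 with 53.9. By maximum the first 5 also held mir219-1, a microRNA gene, and atoh1a, a neural factor gene of another family. H3K4me3 alone was led by tfap4 with 197.6, mex3d with 130.7, LOC794214 with 115.7, zfhx2 with 113.9 and wee1 with 112.3. All 5 left that class under the covering rule. H3K27Ac also covered tfap4, with an average of 142.0, zfhx2 and wee1, the kinase gene that holds back entry into mitosis, with 51.9, while at mex3d and LOC794214 the H3K4me3 interval did not reach the start. In the small class of H3K27Ac with H3K27me3, LOC103911436 had the highest H3K27Ac, 89.9, and frk, a kinase gene, the highest H3K27me3, 55.0. Next in H3K27me3 came foxc1b with 48.7 and bmi1a, which encodes a Polycomb protein, with 35.5. frk, foxc1b and bmi1a were also covered by H3K4me3, and LOC103911436 was covered by H3K4me3 and H3K27me3 without H3K27Ac, so none of these 4 was in the class under the covering rule.

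Gene lists are given by the marks that cover the start, since long H3K27me3 intervals covered many of these starts with a summit farther off. Beside them stand the shares of all placed genes: 58.5% had H3K27Ac, 63.0% had H3K4me3 and 31.0% had H3K27me3. By class, 41.5% had H3K27Ac with H3K4me3, 13.4% all 3 marks and 4.43% H3K4me3 with H3K27me3. H3K27me3 alone covered 12.2%, H3K27Ac alone 2.55% and no mark 21.2%. The median signals of all covered starts were 37.3, 33.6 and 11.8. The plot of lists by combination shows them together.

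**Figure D4:**
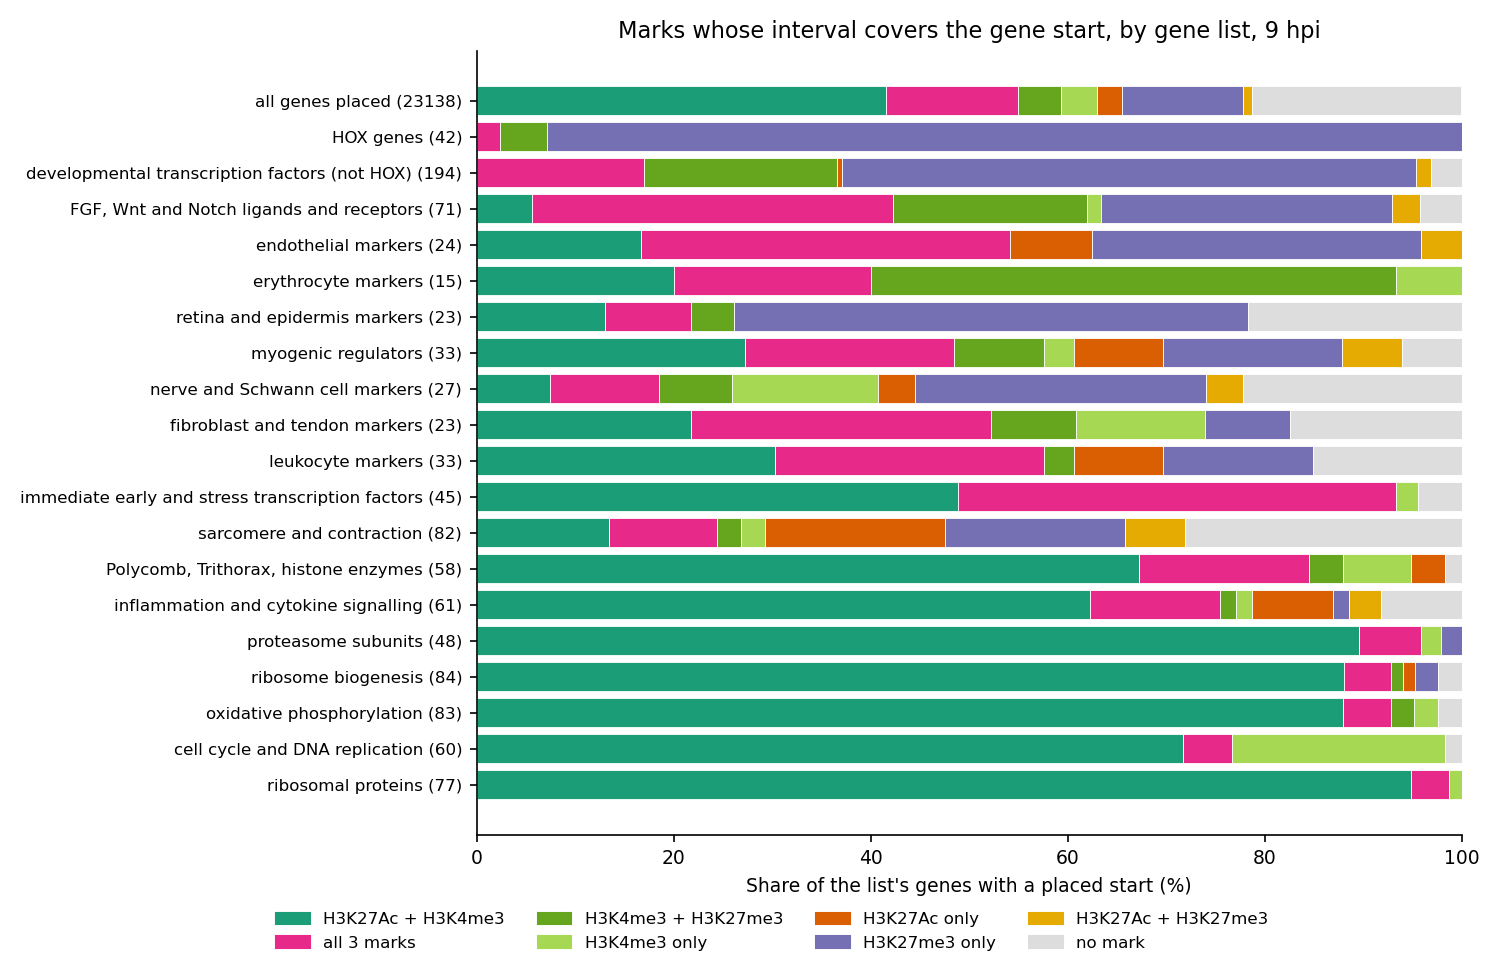
Share of the placed genes of each list (x axis, %) by the marks whose interval covers the start at 9 hpi, with the number of genes in brackets and all placed genes at the top; lists are ordered by their share with H3K27me3. H3K27me3 covers 100% of the HOX genes placed and 3.90% of the ribosomal protein genes.

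HOX genes, which give cells their position along the body axis, lay in long H3K27me3 domains. All 42 that could be placed were covered by H3K27me3, 39 of them by no other mark. By summits, 38 of the 49 named had no mark at all, since few summits serve a whole cluster. The 42 genes shared 11 intervals, so they are not 42 separate observations. The longest interval of the H3K27me3 list, 143000 bp on chromosome 23 (35909001 to 36052000), held 10 of them, from hoxc3a to hoxc13a, with an average of 56.0. Inside it lay 1 H3K27Ac interval over 0.559% of its length and 1 H3K4me3 interval over 1.26%.

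hoxb4a was the exception. Its start (chromosome 3, 23591260) was covered by H3K27Ac with an average of 27.02, by H3K4me3 with 25.5 and by an H3K27me3 interval of 108000 bp with 48.2. hoxb5a in the same domain had H3K4me3 with 12.0, and hoxc5a in the domain on chromosome 23 had H3K4me3 with 9.57; neither had H3K27Ac. The strongest HOX domain by average, 64.6, held hoxc6b on chromosome 11.

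By covering intervals, developmental transcription factors outside the HOX clusters were nearly all under H3K27me3, 187 of 194 placed (96.4%). By summits 89 of the 199 named had H3K27me3, against 4725 of all 23871 genes. Of the 187 covered, 113 had H3K27me3 alone, 38 had H3K4me3 as well, 33 had all 3 marks and 3 had H3K27Ac as well. The median H3K27me3 signal of the list was 32.0. None of the 194 had H3K27Ac and H3K4me3 without H3K27me3, while by summits 16 of the 199 named did. The highest H3K27me3 was at otx1b, 62.6. pou3f3b, a neural factor gene, had the averages 26.7 for H3K4me3 and 57.4 for H3K27me3. The highest H3K27Ac of the list, 43.8, was at shox2, a homeobox gene, and the highest H3K4me3, 65.3, at sox11a, a neural and progenitor factor gene.

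Ligands and receptors of the FGF, Wnt and Notch pathways were split by role; this division was made after their values were seen. Of 71 placed, 63 (88.7%) had H3K27me3. Wnt ligands had it alone at 12 of 22 starts, among them wnt8a with an average of 38.8, and FGF ligands at 8 of 19. Frizzled receptors, which bind Wnt, had all 3 marks at 8 of 11 starts and H3K4me3 at all 11. The FGF receptors had all 3 marks at 5 of 5 starts. At fgfr1a the averages were 19.8 for H3K27Ac, 27.7 for H3K4me3 and 10.3 for H3K27me3, while the ligand gene fgf8a had 8.20 for H3K4me3, 33.1 for H3K27me3 and no H3K27Ac. Among Notch ligands 5 of 8 had all 3 marks, with the highest H3K4me3 of these at jag2b, 50.0. Over the whole list the highest H3K27Ac was 50.2 at fzd2, and the highest H3K4me3 109.1 at fzd1.

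Immediate early and stress transcription factors carried strong active marks, and by covering intervals H3K27me3 lay beside them at many starts. Of 45 placed, 22 had H3K27Ac and H3K4me3, 20 (44.4%) had all 3 marks, 1 had H3K4me3 alone and 2 had none. The median signals of the list were 51.5 for H3K27Ac, 52.5 for H3K4me3 and 12.6 for H3K27me3. At jun, which encodes the core subunit of AP-1, the averages were 85.5, 114.9 and 25.4. At cebpa, a C/EBP factor gene, they were 66.4, 78.02 and 29.7. At nr4a3, an orphan nuclear receptor gene, they were 50.8, 58.0 and 24.8. egr3, an early growth response gene, had the highest H3K27me3 of the list, 34.3, with 17.6 for H3K27Ac. fosl2, another AP-1 subunit gene, had the highest H3K27Ac, 104.6, and no H3K27me3.

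By summits only 3 of the 46 named were in the class of all 3 marks, which held 8.68% of all genes. In the others that all 3 marks covered, the summit of at least 1 mark lay farther off. An H3K27me3 summit lay near 7 of the 46 starts, against 4725 of all 23871 genes. The share with H3K27me3 was thus above that of all genes by covering intervals only (44.4% against 31.0%). In the plot of H3K4me3 against H3K27me3 the immediate early genes lie at high H3K4me3, and the developmental factors at high H3K27me3.

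**Figure D5:**
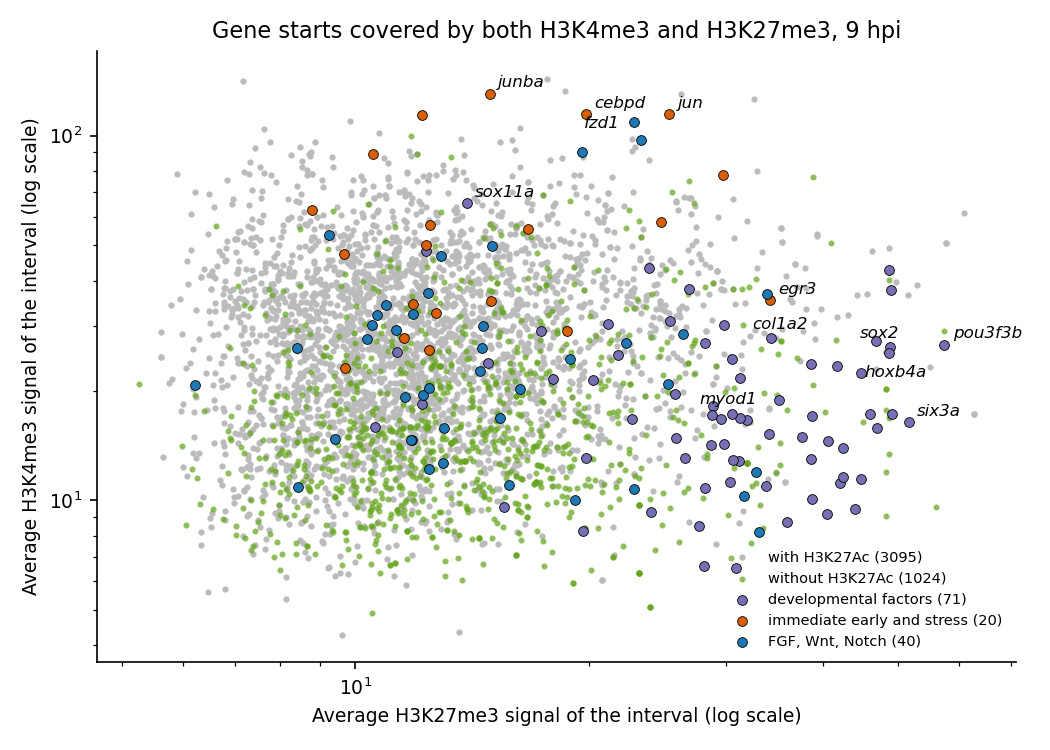
Average H3K27me3 signal (x axis, log scale) and average H3K4me3 signal (y axis, log scale) of the intervals over the 4119 gene starts that both marks covered at 9 hpi; small points are genes with (grey) and without (green) H3K27Ac, large points members of 3 lists. junba, at 14.9 and 130.5, and six3a, at 51.7 and 16.4, lie at opposite ends.

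Inflammation and cytokine genes had mostly active marks: 38 of 61 placed had H3K27Ac and H3K4me3, and 12 (19.7%) had H3K27me3. tnfaip3, which encodes an inhibitor of NF-κB, had the highest H3K27Ac, 137.6, and stat3, which encodes a factor downstream of cytokine receptors, the highest H3K4me3, 91.4. The receptor gene cxcr4a had the highest H3K27me3, 28.7. Genes of secreted cytokines were found in several classes; those named were picked after their values were seen. csf3b, tnfb, ccl19a.1 and cxcl18b had H3K27Ac and H3K4me3, tgfb1a and si:ch211-239j19.3 had all 3 marks, cxcl12a had H3K4me3 and H3K27me3, and tnfa, il12a, cxcl8b.3 and il8l1 had none. il1b, the gene of interleukin-1 beta, had H3K27Ac with an average of 11.5, below the 25th percentile of all H3K27Ac intervals (13.0), and neither other mark. il6 likewise had H3K27Ac alone with 14.2 and csf3a, a granulocyte growth factor gene, with 16.5. cxcl8a, a neutrophil attractant gene, had H3K27Ac with 33.0 and H3K27me3 with 10.3.

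Genes of the contractile apparatus had few H3K4me3 starts, 24 of 82 placed (29.3%, against 63.0% of all genes). H3K27Ac alone covered 15, against 2.55% of all genes. H3K27me3 alone covered 15 and no mark 23, against 12.2% and 21.2% of all genes. Of the 105 genes listed 83 were named in the interval lists, and myhz1.1, myhz2, smyhc1, ttn.1 and ttn.2 were not. neb, the gene of the giant filament protein nebulin, had H3K27Ac with 10.3, and tcap, a Z-disc gene, with 22.3. The value of neb was below the 25th percentile of all H3K27Ac intervals, 13.0. The fast troponin gene tnnt3b had H3K27Ac with 13.2 and H3K27me3 with 9.80. The tropomyosin gene tpma had H3K27me3 alone with 19.3. The highest H3K27Ac, 81.0 at capzb, and the highest H3K4me3, 73.7 at capza1a, were at genes of actin capping proteins, which many cell types use. The median H3K27Ac signal of the list was 14.9, against 37.3 over all genes.

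Myogenic regulators were spread over all classes. myod1, the master regulator of the muscle lineage (chromosome 25, start 30845983), had all 3 marks, with averages of 20.3 for H3K27Ac, 17.7 for H3K4me3 and 27.04 for H3K27me3. All 3 marks also covered six1a, six1b, six4a, six4b, eya4 and meox1, factors upstream of myogenic genes, which makes 7 of 33 placed. Of all placed genes 13.4% were in that class. By summits 3 of the 34 named were in it, close to the 8.68% of all genes. six4a had 36.1, 38.0 and 29.6. The differentiation factors myog and myf6 had H3K27Ac and H3K4me3 without H3K27me3, with H3K27Ac averages of 18.2 and 17.7. mef2ca and mef2cb had H3K27Ac alone, with 23.1 and 12.6, while mef2d had H3K27Ac with 46.3 and H3K4me3 with 54.0.

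By covering intervals these genes of satellite cell and early lineage factors had H3K27me3 alone: pax7a with an average of 32.3, pax3a with 29.7, pax3b with 16.0 and myf5 with 8.33. By summits no mark stood at any of these starts. The value of myf5 was near the 25th percentile of all H3K27me3 intervals, 7.95. pax7b had an H3K4me3 summit near the start, with 8.68, and its start could not be placed. The cofactor gene mkl1b had the highest H3K27Ac of the list, 82.0, mef2d the highest H3K4me3, and tcf21, a factor gene of connective tissue progenitors, the highest H3K27me3, 33.0. Other members were lmod3, eya1, klhl40a, klhl40b and klhl41b with H3K27Ac and H3K4me3, klhl41a with H3K27Ac, vgll2b with H3K27Ac and H3K27me3, eya2 and si:dkeyp-93d12.1 with H3K4me3 and H3K27me3, mef2b and tbx1 with H3K27me3, msc with H3K4me3, and mef2aa and klhl31 with none.

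Housekeeping lists were nearly uniform. H3K27Ac with H3K4me3 and no H3K27me3 covered 73 of 77 ribosomal protein genes, 73 of 83 genes of oxidative phosphorylation, 74 of 84 of ribosome biogenesis and 43 of 48 of the proteasome. The highest H3K27Ac values were 125.3 at rpl30, a ribosomal protein gene, 132.8 at cox7a2a, a gene of respiratory complex IV, 110.3 at nop56, a nucleolar gene, and 107.4 at psmb1. The highest H3K4me3 values were 82.4 at rps15, 78.6 at atp5b, 101.6 at utp18 and 77.3 at psma8. H3K27me3 was highest at rpl30 with 15.1, at atp5h with 19.6, at heatr1 with 26.6 and at the proteasome gene si:ch211-14a17.13 with 15.9. Median H3K27Ac signals of these lists lay between 47.7 and 61.5, above the 37.3 of all genes.

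Cell cycle genes had the same class at 43 of 60 starts and H3K4me3 alone at 13, a class that held 3.67% of all genes. Those with H3K4me3 alone included genes of mitosis, such as aurka with an average of 18.0, ccnb1 with 24.7 and ttk with 43.4. At cdk1, the kinase gene of mitotic entry, an H3K27Ac interval of 400 bp with an average of 96.0 lay beside the start without covering it. The highest H3K27Ac was 104.8 at rb1, the retinoblastoma gene, and the highest H3K4me3 108.7 at cdkn1ba, a cell cycle inhibitor gene. H3K27me3 covered 3 of the 60: ccnd1, cdkn1a and mcm7, with the highest average at mcm7, 22.9.

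Genes of the enzymes that write, read and erase these marks lay mostly in the main class, 39 of 58, against 41.5% of all genes. All 3 marks covered 10, against 13.4% of all genes, and any H3K27me3 covered 12 (20.7%), against 31.0%. ezh2, the methyltransferase gene of Polycomb complex 2, had H3K27Ac with 75.4 and H3K4me3 with 69.0. The genes under all 3 marks included Polycomb complex 1 members. At bmi1b the averages were 22.9 for H3K27Ac, 50.8 for H3K4me3 and 57.6 for H3K27me3, the highest H3K27me3 of the list. At cbx8a they were 70.7, 53.6 and 39.3. The highest H3K27Ac was 133.4 at sirt1 and the highest H3K4me3 97.9 at crebbpa.

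Markers of the cell types in the pool were checked as well. Of the muscle markers, myod1 had all 3 marks, tnnt3b had H3K27Ac and H3K27me3, ckma and atp2a1 were covered by H3K27Ac alone with 9.50 and 18.0, and acta1b by H3K27me3 alone with 7.75. Muscle genes thus had active marks at some starts only, and acta1b had none. The averages of acta1b and ckma were low, below the 25th percentiles of all H3K27me3 intervals (7.95) and all H3K27Ac intervals (13.0). Leukocyte markers differed: spi1b had H3K27Ac and H3K4me3 with 31.5 and 17.7, and coro1a had all 3 marks, while ptprc and mpx had none and lcp1 was not named. Of the 33 leukocyte genes placed, 10 had H3K27Ac and H3K4me3 and 9 all 3 marks, against 41.5% and 13.4% of all placed genes. Any H3K27Ac covered 66.7% of the 33 and any H3K4me3 60.6%, against 58.5% and 63.0% of all placed genes. Any H3K27me3 covered 15 of them (45.5%), against 31.0% of all placed genes. By summits 11 of the 33 had H3K27me3, against 4725 of all 23871 genes. The highest H3K27Ac and H3K4me3 of that list were 74.5 and 64.4, both at runx1, and the highest H3K27me3 37.0 at runx3, a pair of genes that encode blood lineage factors.

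By covering intervals endothelial genes had H3K27me3 at 18 of 24 starts and all 3 marks at 9, against 31.0% and 13.4% of all placed genes. By summits 7 of the 24 had H3K27me3, against 4725 of all 23871 genes. All 3 marks stood at 5 of the 24 by summits, against 8.68% of all genes. At fli1a, an endothelial and blood factor gene, the averages were 15.0 for H3K27Ac, 17.8 for H3K4me3 and 34.1 for H3K27me3. The markers kdrl and cdh5 were also covered by all 3 marks, with H3K27me3 averages of 24.2 and 7.75. The marker tie1 had H3K27Ac with 21.4 and H3K4me3 with 14.3, without H3K27me3. The highest H3K27Ac was 23.7 at sox18 and the highest H3K4me3 28.6 at dll4, a Notch ligand gene. Fibroblast and tendon genes had all 3 marks at 7 of 23 starts by covering intervals and at 4 of 24 by summits. The shares of all genes were 13.4% and 8.68%. The collagen gene col1a2 had 18.3, 27.6 and 39.1, with an H3K27me3 interval of 1400 bp. Another collagen gene, col1a1a, had 11.2, 16.7 and 15.1. Of the other markers, scxa had H3K4me3 alone with 15.2 and pdgfra had no mark. The highest H3K27Ac and H3K4me3 in that list, 26.1 and 56.9, were at egr1.

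Erythrocyte genes had H3K4me3 with H3K27me3 at 8 of 15 starts, against 4.43% of all genes. By summits 1 of the 15 was in that class, against 3.25% of all genes. Of the 8 covered, 4 globin genes lay under the same pair of intervals on chromosome 3 and count as 1 place. There hbaa1, an alpha globin gene, had H3K4me3 with an average of 12.6 over 20000 bp, H3K27me3 with 32.0 over 38600 bp and no H3K27Ac. alas2, a heme synthesis gene, had 7.82 and 14.1. The marker slc4a1a had H3K27Ac with 10.1 and H3K4me3 with 12.2, without H3K27me3. The highest H3K27Ac of the list was 43.9 at urod and the highest H3K4me3 26.8 at aqp1a.1.

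Nerve and Schwann cell genes had H3K27me3 at 14 of 27 starts, against 31.0% of all placed genes. By summits 7 of the 28 named had it, against 4725 of all 23871 genes. The highest value, 28.7, was at sox10, the factor gene of Schwann cells, which also had H3K4me3 with 14.2. The neuron gene elavl3 had H3K27me3 alone with 10.7. The other markers, mbpa and mpz, had H3K4me3 alone, with 7.28 and 5.64. In that list mbpb, a myelin gene, had the highest H3K27Ac and H3K4me3, 92.3 and 72.6. Retina and epidermis genes had H3K27me3 alone at 12 of 23 starts, against 12.2% of all placed genes. There crx, a photoreceptor factor gene, had an average of 42.0, rho, the rhodopsin gene, 9.95 and the epidermal factor gene tp63 8.39. The marker krt5 had an H3K4me3 summit near the start, with 14.2, and its start could not be placed. By summits H3K27me3 stood alone at 2 of the 25 retina and epidermis genes named, against 7.28% of all genes. The highest H3K27Ac in the retina and epidermis list was 48.2 at pfn1 and the highest H3K4me3 53.8 at krt8. What share each cell type had in the pool was not measured.

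The shares of the classes also varied between chromosomes. They count genes, and neighbouring genes can share an interval, so they are not shares of separate places. The share of placed starts with H3K4me3 and H3K27me3 but no H3K27Ac was highest on chromosome 25, at 9.23%, and lowest on chromosome 22, at 2.2%. Chromosome 22 in turn had the highest share of H3K4me3 alone, 8.56%. Chromosome 7 had the highest share with all 3 marks, 17.5%, and the lowest share of H3K27Ac with H3K4me3, 36.45%.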

How the data were processed

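ChIP-seq libraries of H3K27Ac, H3K4me3 and H3K27me3 at 9 hpi were used, 1 each. The submitters' processing notes name BWA, MACS2 2.1.0 and SICER 12.1 and the build danRer10 without their roles. Caller, threshold, use of input and normalization are not given in the sources used here. The authors deposited intervals with signal values, the average and the maximum over an interval, on a grid of 200 bp. Depth per library is unknown.

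Overlaps (at least 1 bp) and gene starts were computed with Python 3.11.15, pandas 2.3.3, numpy 2.4.6 and scipy 1.17.1. In the H3K27Ac list 8 gene names read as dates were restored to symbols. Gene starts came from summits and deposited distances; 112 genes on several chromosomes, 146 with several starts and 475 whose candidate starts met different intervals were not placed. The 19 gene lists hold 1201 names, 1059 matched as written and 55 through a RefSeq synonym. The members and lists were chosen with earlier results of these data known. Named are the first 5 genes per mark and combination, the top member of each list per mark, HOX and myogenic genes and genes at the distance limit; other genes named were chosen after their values were seen. Overlap and placement were tested on simulated data. Promoter sequences were not analysed here. Alternatives are given below.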

Additional observations from a re-analysis of the deposited data

How the results depend on the processing

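No paired analysis was possible because each mark has 1 library at 9 hpi, and for the same reason no library could be left out. Of the 18 alternative values of interval overlap, 16 stayed within 1.5 times. The 6 that asked for an overlap of 200 bp could not differ, since the bounds lie on a grid of 200 bp. The 2 that moved came from leaving out weak intervals (average below the 25th percentile of the list). Then 3698 H3K4me3 intervals met H3K27me3 and 3521 the reverse. That setting gave 1363 genes with all 3 marks, 409 with H3K4me3 and H3K27me3, 568 with H3K4me3 alone, 1642 with H3K27Ac alone and 376 with H3K27Ac and H3K27me3. All 3 marks stood at 1225, 3226 and 5570 genes with summits within 500, 2000 and 5000 bp, and at 5000 bp 564 genes had H3K4me3 alone and 317 H3K27Ac with H3K27me3. The covering rule, chosen after seeing the data, gave 591, 2825 and 230 genes with H3K27Ac alone, H3K27me3 alone and H3K27Ac with H3K27me3. H3K27Ac with H3K4me3 stayed the largest class throughout. Of 36 alternative ratios of median signal 35 stayed within 1.5 times and none changed direction. The 4 with shared places counted once could not differ, since the medians already counted each interval once. The 4 on assembled chromosomes could not differ either. The ratio that moved was H3K4me3 at starts with H3K27me3 over starts with H3K27Ac, 0.396 by averages and 0.207 by maxima. Of 190 alternative counts in gene lists 70 moved by more than 1.5 times, 16 of them between the summit rule and the covering rule. All intervals lie on chromosomes 1 to 25, so a restriction to assembled chromosomes changed nothing. Gene names as deposited, names on 1 chromosome only and shared places counted once moved no class beyond 1.5 times, nor did asking that start intervals overlap. Depth limits cannot be given.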
